A study of Mus musculus with 3 samples.

Results

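The genes described here are 8 macrophage markers read in sorted skin mast cells: C1qa, C1qb, C1qc, Csf1r, Adgre1, Cd68, Mrc1 and Lyz2. They were taken from the deposited expression table by gene symbol, and are 8 of its 20677 rows. Each was read in 3 libraries of skin mast cells, all taken 1 week after birth from mice of the mixed C57BL/6xCD1xFVB background. The library called early EMP came from Csf1rCre/EYFP mice given 4'OHT (4-hydroxytamoxifen, which switches on an inducible Cre recombinase) at embryonic day 8.5, and stands for an early erythro-myeloid progenitor origin. The library called late EMP came from Runx1Cre/EYFP mice pulsed at embryonic day 8.5, and the library called fetal HSC, for fetal haematopoietic stem cell, from Runx1Cre/EYFP mice pulsed at embryonic day 9.5. EYFP is the fluorescent reporter that Cre turns on for good in a cell and its descendants. Cre was driven by Csf1r regulatory sequence in the first library and by Runx1 regulatory sequence in the other 2, so driver line and progenitor cannot be told apart in comparisons with the early EMP library. There is 1 library per origin, how many mice each holds is not stated in the labels, and no difference below has a replicate check, a standard error or a p-value.

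C1q is the recognition molecule of the classical complement pathway. It is assembled from A, B and C chains, encoded by C1qa, C1qb and C1qc, and in most tissues it is made mainly by macrophages. Csf1r encodes the receptor for CSF1 and IL-34, on which most tissue macrophages depend for survival. Adgre1 encodes the adhesion receptor F4/80, Mrc1 the mannose receptor CD206, Cd68 a glycosylated membrane protein of lysosomes, and Lyz2 lysozyme. Mast cells share with macrophages the transcription factor PU.1 and a large lysosomal compartment, so not all of these genes are equally specific.

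The 3 C1q genes sit side by side on chromosome 4 of GRCm38, within 18.7 kb, with C1qb at 136880126 to 136886200, C1qc at 136889801 to 136892936 and C1qa at 136895916 to 136898844. Lyz2 (chromosome 10, 117277541 to 117282272) lies next to its near copy Lyz1. RefSeq promoter entries of GRCm38.p6 matched 5 of the 8 genes: C1qb, C1qc, Cd68, Mrc1 and Lyz2. The 250 bases before the start site of the entry are shown for C1qb and C1qc, whose RNA moved together, and for Lyz2, whose RNA did not move with them. The start of the C1qc entry lies inside the gene span given above, so its window overlaps the end of that span. Capitals mark GAGGAA, a core bound by PU.1 and related ETS factors, and TGCTGA, a half-site of MAF factors, on either strand.
C1qb (chr4:136886201-136886450, minus strand): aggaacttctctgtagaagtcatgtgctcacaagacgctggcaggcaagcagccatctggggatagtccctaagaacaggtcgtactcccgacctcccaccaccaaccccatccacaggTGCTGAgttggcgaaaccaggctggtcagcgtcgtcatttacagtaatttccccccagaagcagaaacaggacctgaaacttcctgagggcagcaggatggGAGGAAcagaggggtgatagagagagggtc
C1qc (chr4:136892915-136893164, minus strand): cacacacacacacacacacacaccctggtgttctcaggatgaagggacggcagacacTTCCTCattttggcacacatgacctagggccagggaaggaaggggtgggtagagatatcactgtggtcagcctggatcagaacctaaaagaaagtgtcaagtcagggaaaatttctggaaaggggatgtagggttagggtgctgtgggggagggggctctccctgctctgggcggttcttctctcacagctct
Lyz2 (chr10:117282273-117282522, minus strand): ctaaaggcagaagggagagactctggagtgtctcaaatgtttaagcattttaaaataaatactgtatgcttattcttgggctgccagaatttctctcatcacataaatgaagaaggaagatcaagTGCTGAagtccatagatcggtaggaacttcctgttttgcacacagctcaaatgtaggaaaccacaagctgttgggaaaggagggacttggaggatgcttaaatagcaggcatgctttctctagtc
The ETS core was found once before C1qb, its first base 30 bases before the start, and once before C1qc, 193 bases before the start and on the opposite strand, so its complement is printed. It was found 3 times before Mrc1 and once before Cd68, and not in the window of Lyz2. Among 32536 distinct promoter windows of this length, 23.4% held the ETS core. The MAF half-site was found once before C1qb, 131 bases before the start, and once before Lyz2, 125 bases before the start, against 16.1% of all windows. The letters TATAAA of a TATA box, searched on both strands and held by 12.3% of windows, were in none of the 5. No marked match overlaps another. These are matches of letters and show nothing about binding.

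The other members lie elsewhere in GRCm38: Cd68 on chromosome 11 (69664213 to 69666170), Mrc1 on chromosome 2 (14229414 to 14332023), Adgre1 on chromosome 17 (57358581 to 57483529) and Csf1r on chromosome 18 (61105572 to 61131139).

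The libraries were mast cell libraries by their RNA. Levels are in FPKM, that is, fragment counts divided by the length of the transcript and by the size of the library, and lists of 3 values are always in the order early EMP, late EMP, fetal HSC. All 12 mast cell markers were above 20 FPKM in each library, and they summed to 217977 FPKM in early EMP, 187846 in late EMP and 219253 in fetal HSC. The 8 macrophage markers summed to 117, 94.5 and 67.7 FPKM. Depth is not stated. It was implied, imprecisely, as 15.1, 15.3 and 17.1 M fragments from the steps between low values. Sex-linked RNA differed between the libraries: Xist, which silences an X chromosome in females, was at 25.6, 0.53 and 52.0 FPKM, and Ddx3y, on the Y chromosome, at 20.7, 38.5 and 0.32. Sex and origin cannot be told apart here.

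In the fetal HSC library the C1q genes were lower than in both EMP libraries, each by a similar factor. C1qa (gene ID 12259) was at 14.8, 12.2 and 3.05 FPKM. C1qb (12260) was at 20.4, 13.3 and 3.96 FPKM. C1qc (12262) was at 17.1, 16.0 and 3.68 FPKM. For each chain the 2 EMP libraries were close and the fetal HSC library was the low one. Summed over the 3 chains, C1q RNA was at 52.3, 41.5 and 10.7 FPKM, which is 4.89 times lower in fetal HSC than in early EMP and 3.88 times lower than in late EMP as a plain ratio. Between the EMP libraries the sum differed 1.26 times. From the implied depth, the values of C1qa stand for about 204, 170 and 46 fragments and those of C1qc for about 279, 264 and 66, so these levels do not rest on a handful of reads.

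**Figure D1:**
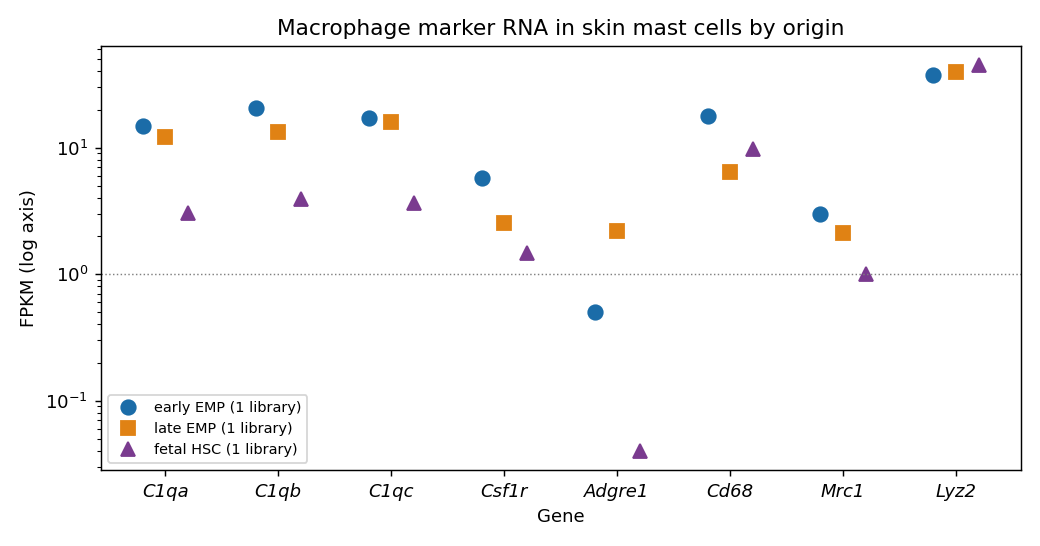
FPKM of the 8 macrophage markers on a log axis, with 1 point for each library and a dotted line at 1 FPKM. The 3 C1q genes lie between 12.2 and 20.4 FPKM in both EMP libraries and between 3.05 and 3.96 in fetal HSC, Lyz2 lies between 37.7 and 44.8 in all 3, and Adgre1 is the lowest member in early EMP and fetal HSC (0.50 and 0.04) and next to Mrc1 in late EMP (2.18 and 2.13).

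The proportions of the chains were similar in every library. C1qa gave 28.2%, 29.4% and 28.5% of the summed C1q FPKM, C1qb 39.1%, 32.1% and 37.0%, and C1qc 32.7%, 38.6% and 34.4%. The highest chain exceeded the lowest by 1.38, 1.31 and 1.30 times. C1qb was the highest chain in early EMP and fetal HSC and C1qc in late EMP, and C1qa was the lowest in all 3. With no replicate, whether the swap of the upper 2 chains exceeds preparation error was not tested.

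The genes beside the cluster did not share its level. Listed neighbours on the C1qb side were at 0.89 FPKM or less in each library (Lactbl1 at 0.89, 0.09 and 0.00, and Ephb2, an ephrin receptor, at 0.29, 0.05 and 0.10). On the C1qa side, Zbtb40 was at 0.83, 0.60 and 0.37 FPKM and Wnt4 at 0.27, 0.23 and 0.08. Cdc42, a small GTPase used by all cells, was at 280, 405 and 388 FPKM and lay within 2-fold in every comparison. The C1q genes thus lay between genes near 0.

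**Figure D2:**
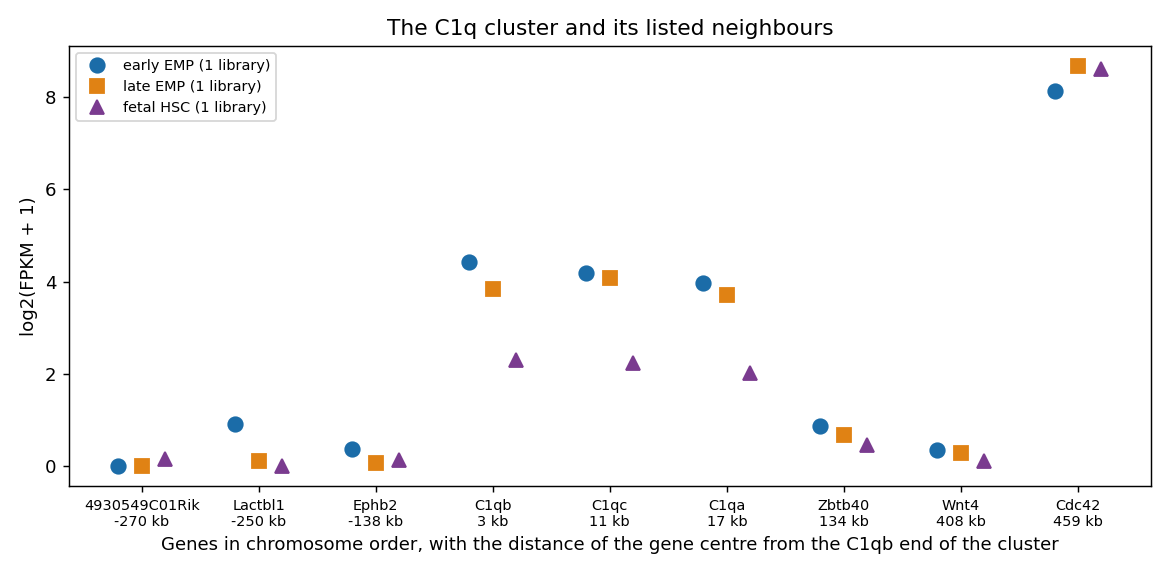
Expression as log2(FPKM + 1) of the C1q cluster and the 3 nearest listed genes on each side, in chromosome order, with 1 point for each library. C1qb, C1qc and C1qa are lowest in fetal HSC. In all 3 libraries they stand above the neighbours up to Wnt4, which are at 0.89 FPKM or less, and below Cdc42, which is at 280 FPKM or more.

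Csf1r, the receptor gene that also names the early EMP line, was low throughout. It was at 5.70, 2.54 and 1.47 FPKM, highest in the library from the Csf1rCre mice. The pulse was given before birth and RNA was read 1 week after it, so this level is no measure of the labelling. In place among the 14412 tested genes, Csf1r exceeded 53.2% of them in early EMP, 36.5% in late EMP and 30.2% in fetal HSC. Its neighbour and relative Pdgfrb, a receptor for platelet-derived growth factor, had another order, at 7.78, 11.2 and 10.5 FPKM. Runx1, which drives Cre in the other line, was at 12.7, 12.3 and 12.5 FPKM.

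Mrc1, the mannose receptor gene, followed the order of Csf1r and C1q at a lower level, at 3.01, 2.13 and 1.01 FPKM. Adgre1, the F4/80 gene, did not. It was at 0.50, 2.18 and 0.04 FPKM, highest in late EMP, and from the implied depth those values stand for about 24, 104 and 2 fragments. F4/80 RNA was thus under 1 FPKM in 2 of the 3 libraries, including the early EMP library where C1q and Csf1r were highest.

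Cd68 and Lyz2, whose products are a lysosomal membrane protein and a secreted enzyme, were the other 2 exceptions to the order. Cd68 was at 17.8, 6.44 and 9.70 FPKM, lowest in late EMP. Lyz2 was the most abundant member in every library and the least variable, at 37.7, 39.8 and 44.8 FPKM. Transcripts of Lyz1 and Lyz2 are identical at 96.0% of 1262 aligned bases, so reads can be assigned to the wrong copy. Lyz1 was listed at 1.66, 1.76 and 1.90 FPKM, and the sum of both copies, 39.3, 41.5 and 46.7 FPKM, kept the flat pattern.

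Across the members, 5 of 8 decreased in the order early EMP, late EMP, fetal HSC (C1qa, C1qb, C1qc, Csf1r and Mrc1), as did 24.9% of all tested genes. Early EMP was the highest library for 6 of 8, against 41.2% of tested genes, and fetal HSC the lowest for 6 of 8, against 40.2%. The order of levels among the members was not fixed. In early EMP it ran Lyz2, C1qb, Cd68, C1qc, C1qa, Csf1r, Mrc1, Adgre1. In fetal HSC Cd68 stood second, above every C1q chain.

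Differences between libraries were then set on a common scale, the log2 ratio of FPKM + 1 in both libraries, on which low genes differ by less than their plain ratio. Rows that reached 1 FPKM in any library were used, and all 8 members passed. Adgre1 passed through late EMP alone, and some genes of the lists below also passed through 1 library alone. A gene was counted as apart where the difference reached 2-fold on this scale. The filter thus favours finding such a gene apart in comparisons with its highest library, late EMP for Adgre1. The 3 comparisons share libraries with each other, so their values are given side by side and are not independent.

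Fetal HSC against early EMP set the C1q genes and Csf1r furthest apart. Of 8 members, 4 were at least 2-fold lower in fetal HSC and none higher, where 17.8% of all tested genes were lower and 8.18% higher. Many of the lower rows are regions without a symbol, and among rows with a symbol 8.59% were lower and 8.06% higher. The log2 differences were -2.11 for C1qb, -1.96 for C1qa, -1.95 for C1qc and -1.44 for Csf1r. Mrc1 lay just inside the threshold at -0.996 (from 3.01 to 1.01 FPKM), and Csf1r was the called member nearest to it. Cd68 was at -0.81, Adgre1 at -0.53 and Lyz2 at 0.25. The member median was -1.22, against -0.11 over all tested genes. The calls beside C1q rest on the pseudocount. With 5 FPKM in place of 1, Csf1r was at -0.73 and the lower members numbered 3. With 0.1 FPKM, Adgre1 was at -2.10 and Mrc1 at -1.49, and the lower members numbered 6.

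Fetal HSC against late EMP sets side by side the libraries that share the Runx1Cre driver line, pulsed 1 day apart. Again 4 of 8 members were at least 2-fold lower in fetal HSC and none higher, against 8.26% lower and 3.44% higher among all tested genes (5.35% and 2.71% among rows with a symbol). The 4 were C1qc at -1.86, C1qa at -1.70, Adgre1 at -1.61 and C1qb at -1.53, with Adgre1 past the filter through late EMP alone. Csf1r, called in the comparison with early EMP, was at -0.52 here, Mrc1 at -0.64, Lyz2 at 0.17, and Cd68 at 0.52, higher in fetal HSC. The C1q genes were thus lower in fetal HSC in this comparison too. Late EMP and fetal HSC also differed in pulse day and in sex-linked RNA (Xist at 0.53 and 52.0 FPKM, Ddx3y at 38.5 and 0.32). What the C1q difference came from was not tested. The difference of Adgre1 changed with the pseudocount, from -4.03 with 0.1 FPKM to -0.51 with 5 FPKM, and that of Mrc1 reached -1.01 with 0.1 FPKM. The lower members numbered 5 with 0.1 FPKM and 3 with 5 FPKM.

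Late EMP against early EMP showed little that the background did not. Of 8 members, 1 was at least 2-fold lower in late EMP (Cd68, -1.34) and 1 higher (Adgre1, 1.08), where 10.8% of tested genes were lower and 8.64% higher, or 4.23% and 7.53% among rows with a symbol. Csf1r was at -0.92, C1qb at -0.58, Mrc1 at -0.36, C1qa at -0.26, C1qc at -0.09 and Lyz2 at 0.08. The calls of both Cd68 and Adgre1 ended with a pseudocount of 5 FPKM, at -0.99 and 0.38. That of Csf1r began with 0.1 FPKM, at -1.14. At 4-fold, C1qb alone was lower, in fetal HSC over early EMP, where 1.19% of tested genes were. No member was 4-fold lower in fetal HSC over late EMP (0.569% of tested genes) or in late over early EMP (0.604%).

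**Figure D3:**
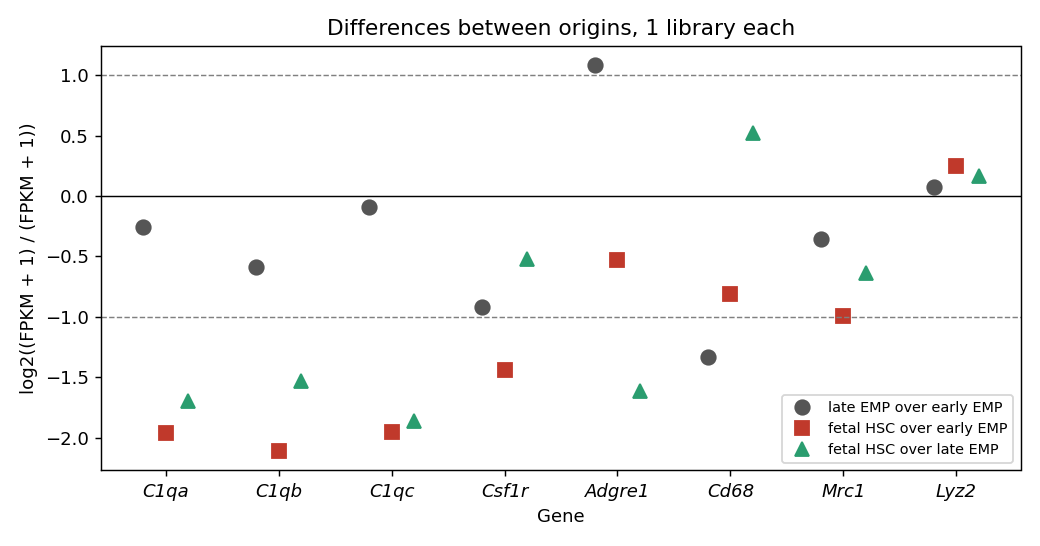
Difference of each member in the 3 comparisons, as the log2 ratio of FPKM + 1, 1 library against 1, with dashed lines at 2-fold. The C1q genes lie between -2.11 and -1.53 in both comparisons of fetal HSC and between -0.58 and -0.09 in late over early EMP. Adgre1 and Cd68 change sign between comparisons.

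Other macrophage genes gave a mixed picture. Of 24 listed markers outside the 8, 22 were in the table and 10 reached 1 FPKM in a library. Of these 10, 4 were at least 2-fold lower in fetal HSC than in early EMP and 2 higher. Among all tested genes 17.8% were lower and 8.18% higher. Against late EMP, 4 were lower and 2 higher in fetal HSC (8.26% and 3.44% of all tested genes). Late EMP over early EMP had 1 lower and 1 higher (10.8% and 8.64%). The same shares apply to the counts of the lists below. The medians over the 10 were -0.17 for late over early EMP, -0.50 for fetal HSC over early EMP and -0.40 for fetal HSC over late EMP. These lists, like the 8 members, were chosen with earlier results of these data known.

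The lower markers in fetal HSC against early EMP were Ms4a7, a membrane protein, at 5.80, 2.87 and 0.83 FPKM (log2 difference -1.89), and Cbr2, a carbonyl reductase, at 6.00, 5.22 and 1.33 (-1.59). Gas6, the ligand of the TAM receptors that help clear dying cells, was at 2.79, 2.37 and 0.31 FPKM (-1.53), and Folr2, a folate receptor of resident macrophages, at 8.09, 5.42 and 3 (-1.18). All 4 decreased in the order shown by C1q. The 2 higher genes were Aif1, which encodes the actin-bundling protein IBA1, at 2.04, 3.88 and 20.03 FPKM (2.79), and Mpeg1, which encodes the pore-forming protein perforin-2, at 0.20, 0.89 and 1.82 (1.23). Selenop, a selenium carrier, was the most abundant gene of the list at 100, 83.2 and 76.4 FPKM, and Cx3cr1, the fractalkine receptor, was at 5.66, 8.33 and 7.83, both within 2-fold in every comparison. Cd14, the lipopolysaccharide co-receptor, was lowest in late EMP, at 3.55, 0.42 and 1.98 FPKM. Cd163, the haemoglobin scavenger receptor of macrophages, was highest in late EMP like Adgre1, at 0.02, 1.57 and 0.24 FPKM. It was the higher gene in late over early EMP (1.33) and 1 of the 4 lower in fetal HSC over late EMP (-1.05). Cd163 passed the filter through late EMP alone and Mpeg1 through fetal HSC alone, the library where each was highest.

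Other macrophage receptors of the list were under 1 FPKM in all libraries. Fcgr1, the high-affinity IgG receptor, was at 0.35, 0.08 and 0.00 FPKM. Mertk, a receptor for dying cells, was at 0.34, 0.04 and 0.00, and Timd4, a phosphatidylserine receptor, at 0.00, 0.79 and 0.00. Of the 22 genes, 3 were listed at 0 in early EMP (Timd4, Trem2 and Clec4f), none in late EMP and 4 in fetal HSC (Fcgr1, Mertk, Timd4 and Clec4f). An exact 0 in such a table can also be a failed estimate. The list summed to 138, 120 and 118 FPKM, mostly Selenop. In bulk RNA such as this, fewer cells of a type and less RNA per cell cannot be told apart. Whether macrophages among the sorted cells had a part in the C1q difference was not tested.

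**Figure D4:**
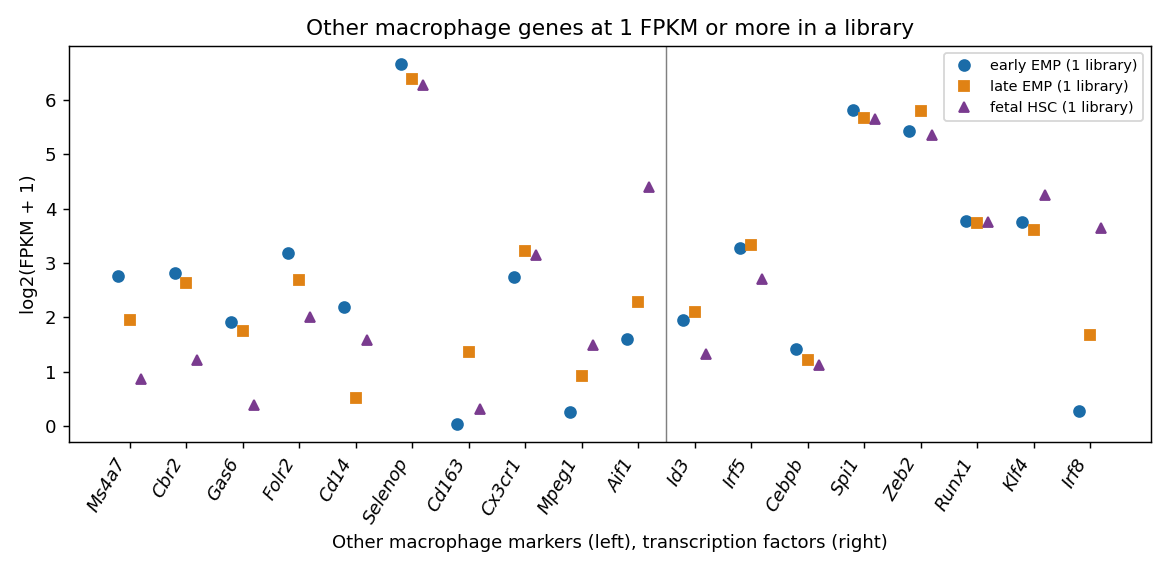
Expression as log2(FPKM + 1) of the other macrophage markers (left of the line, ordered by fetal HSC over early EMP) and of transcription factors (right), for genes at 1 FPKM or more in a library and without Egr1, with 1 point for each library. Ms4a7, Cbr2, Gas6 and Folr2 are lowest in fetal HSC, Aif1 and Irf8 are highest there, and Spi1 and Runx1 are level.

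Among transcription factors of the macrophage lineage, 13 of 15 were in the table and 9 were tested. Irf8 was the only one of the 9 at least 2-fold apart in any comparison. It encodes an interferon regulatory factor of monocyte and dendritic cell development, and was at 0.21, 2.18 and 11.5 FPKM, the reverse of the C1q order (log2 differences 1.39 for late over early EMP, 3.36 for fetal HSC over early EMP and 1.97 for fetal HSC over late EMP). Spi1, which encodes PU.1, was at 55.4, 49.8 and 49.3 FPKM, and Zeb2 at 41.9, 54.6 and 40.2. Maf, a factor of macrophages and some lymphocytes, was at 0.41, 0.83 and 0.22 FPKM. PU.1 RNA was thus abundant and level while Maf RNA was under 1 FPKM in every library. The list medians were 0.05, -0.06 and -0.08.

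The ligands and signalling partners of the CSF1 receptor were also read. Csf1 itself was at 82.1, 81.5 and 58.5 FPKM, above its receptor in each library, and Il34, the other ligand, at 0.00, 0.08 and 0.00. Of 12 tested genes of this list, Csf2, which encodes GM-CSF, was at least 2-fold higher in each comparison, at 26.5, 64.7 and 162 FPKM, and no gene was lower. Csf2rb, the shared chain of the GM-CSF and interleukin-3 receptors, was at 102, 115 and 129 FPKM, and Csf3r, the G-CSF receptor, at 0.26 FPKM or less. The adaptor Tyrobp was at 1212, 1198 and 1058 FPKM and Fcer1g at 1571, 1520 and 2205. Inpp5d, a lipid phosphatase that restrains signalling, was at 289, 243 and 264 FPKM, within 2-fold. The list medians were -0.03, -0.13 and 0.14.

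C1q works with the proteases C1r and C1s and then with C4, C2 and C3. Of these partners, C2 was the one with clear RNA, at 56.0, 40.1 and 42.5 FPKM. C1ra was at 0.00, 0.12 and 0.00, C4b at 0.00, 0.00 and 0.34, and C3 at 0.03, 0.00 and 0.00, while C1s1 was not analysed here. Serping1, the inhibitor of C1, was at 0.04, 0.19 and 0.00 FPKM. Regulators of complement were also abundant: Cd55, which speeds the decay of convertases, was at 93.1, 151 and 154 FPKM, Cr1l, a membrane regulator, at 83.0, 83.8 and 89.0, and Cfp, which encodes properdin of the alternative pathway, at 48.9, 69.2 and 106. Of 11 tested complement genes, 3 were at least 2-fold lower in fetal HSC than in early EMP (C5ar1 and Cd46 among them) and 1 higher (Cfp, 1.11). Among all tested genes 17.8% were lower and 8.18% higher. In late over early EMP, 2 were lower (C5ar1 and Cd46) and none higher, and in fetal HSC over late EMP none passed 2-fold. C5ar1, the C5a receptor, was at 3.45, 1.21 and 0.85 FPKM. The list medians were -0.31, -0.13 and 0.03.

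Lysosome and phagosome genes, the compartment of Cd68, were level. All 20 were tested, 1 was at least 2-fold higher and 1 lower in each comparison, and the medians were 0.00, -0.06 and -0.06. Lgmn, the protease legumain, was the lower gene in both comparisons of fetal HSC, at 19.2, 10.8 and 3.81 FPKM (-2.07 against early EMP and -1.29 against late EMP). Ctsd, cathepsin D, was at 947, 967 and 522 FPKM. Ctss, cathepsin S, was at 11.3, 8.88 and 20.7 FPKM, higher in fetal HSC than in late EMP (1.14). Genes used by macrophages and mast cells alike, such as Laptm5 at 434, 644 and 370 FPKM, had no lower call among 12 in any comparison, and 1 higher in fetal HSC over early EMP (Alox5ap, which serves leukotriene synthesis, at 23.8, 38.1 and 60.3).

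The genes whose profile over the 3 libraries was nearest to the mean C1q profile were Ampd2 (12.9, 9.96 and 2.17 FPKM), Zdhhc24 (15.4, 11.1 and 2.81), Zfp868 (32.5, 23.6 and 6.68), Kdm4a (11.1, 9.76 and 2.20) and Chac2 (6.43, 5.25 and 0.74). Nearness was the Euclidean distance between log2(FPKM + 1) values centred on each gene's mean, over 7839 genes with a symbol at 5 FPKM or more in a library. None of the 5 is among the macrophage genes listed here, and a profile here has only 3 points. Some macrophage genes were ranked as well, chosen after their values were seen: Cbr2 stood 16th, Lgmn 27th, Ms4a7 48th, Folr2 210th and F13a1 341st. For Csf1r the nearest were Armt1 (9.99, 5.13 and 3.17 FPKM), Zfp809 (11.8, 6.20 and 3.91), Accs (5.61, 2.72 and 1.48), Spast (8.38, 4.30 and 2.58) and Slc17a5 (11.2, 5.88 and 3.72). Ranked against Csf1r, F13a1 stood 78th, Folr2 132nd, Ms4a7 286th, Lgmn 640th and Cbr2 1026th.

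Markers of other cells moved in both directions beside C1q. The 6 platelet markers summed to 75.0, 58.6 and 19.0 FPKM, in the order of C1q, mostly from Pf4 and Itga2b. All 3 tested were at least 2-fold lower in fetal HSC than in early EMP, as were 17.8% of all tested genes. Pf4, platelet factor 4, was at 46.7, 38.3 and 7.05 FPKM and stood 50th in nearness to C1q and 5494th in nearness to Csf1r, also ranked after its values were seen. Itga2b was at 24.97, 17.41 and 10.95 FPKM. The platelet chemokine gene Ppbp (0.00, 0.27 and 0.00), Gp1bb (0.00, 0.72 and 0.00) and Itgb3 (0.05, 0.92 and 0.16) were under 1 FPKM and highest in late EMP. The 8 erythroid markers summed to 186, 22.3 and 16.3 FPKM, mostly from globin genes. This sum separated early EMP from both others, which the C1q genes did not. The list was not uniform. Of 6 tested, 3 were at least 2-fold lower in late EMP than in early EMP and 2 higher (Klf1, 1.89, and Ahsp, 1.98). For fetal HSC over early EMP, 4 were lower and 1 higher (Ahsp, 1.32). Hba-a1, an alpha globin, was at 124, 7.95 and 5.85 FPKM. The part of such cells in the values of the members was not tested.

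Most tested monocyte, dendritic and granulocyte markers ran the other way. Without Nr4a1, which mast cells also express (1977, 2472 and 1786 FPKM), 8 monocyte markers summed to 15.4, 53.8 and 95.6 FPKM. Of all 8 tested monocyte markers, 5 were at least 2-fold higher in fetal HSC than in early EMP and 1 lower. Among all tested genes 8.18% were higher and 17.8% lower. Ly6c2, a surface antigen of classical monocytes, was at 0.18, 2.65 and 20.9 FPKM and Ccr2, their chemokine receptor, at 0.11, 5.56 and 6.66, while F13a1, the transglutaminase factor XIII, was the lower one at 8.78, 3.25 and 1.94. Dendritic markers summed to 26.4, 151 and 1190 FPKM, mostly from Cd74 and H2-Ab1, and 4 of 5 tested were higher in fetal HSC than in early EMP. Itgax and Clec9a, more specific to dendritic cells, were at 0.00, 0.00 and 0.72 FPKM and at 0.00, 0.23 and 0.44. The 9 neutrophil and granulocyte precursor markers summed to 116, 807 and 909 FPKM, mainly Ctsg, and all 5 tested were higher in fetal HSC than in early EMP, while Ly6g was at 0.42, 0.00 and 0.00. So the sums of these myeloid lists did not share the order of C1q. The sum of the other macrophage markers did (138, 120 and 118 FPKM), but most of it was Selenop alone (100, 83.2 and 76.4 FPKM). Of the 10 tested markers of that list, 4 were lower in fetal HSC than in early EMP. The 2 higher included Aif1 (2.04, 3.88 and 20.03 FPKM).

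Markers of structural cells were low. Keratinocyte markers summed to 1.00, 3.75 and 5.13 FPKM, fibroblast markers to 1.54, 7.20 and 3.70, and endothelial markers to 7.58, 7.67 and 4.78, most of it from Pecam1, which leukocytes also express. Lymphoid markers summed to 17.0, 6.17 and 16.5 FPKM, above the C1q sum in fetal HSC, and their main genes ran in opposite directions. Cd3e, a chain of the T cell receptor complex, was at 13.54, 0.00 and 0.63 FPKM, and Cd3g, another chain of it, at 1.55, 5.36 and 12.02. The 6 basophil markers, several of which mast cells share, summed to 3627, 1624 and 2598 FPKM. None of these 5 sums followed the order of C1q.

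**Figure D5:**
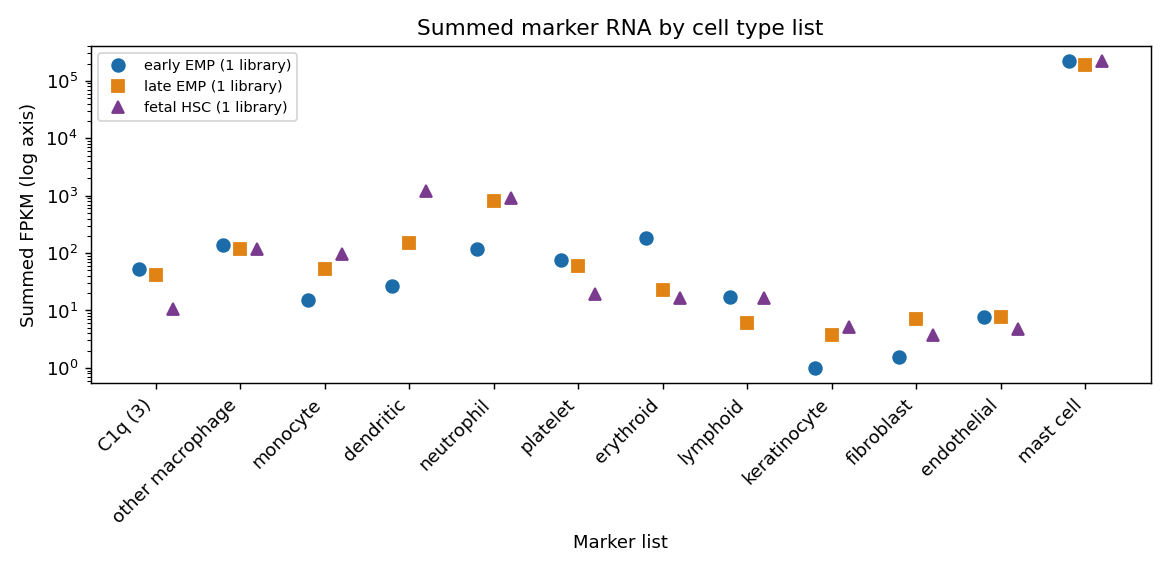
Summed FPKM of C1q and of each marker list on a log axis, with 1 point for each library, the monocyte list without Nr4a1. C1q and platelet sums are lowest in fetal HSC (10.7 and 19.0 FPKM), the monocyte, dendritic and neutrophil sums are highest there (95.6, 1190 and 909), and the mast cell sum is 187846 FPKM or more in every library.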

How the data were processed

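The authors deposited 1 table of FPKM values per gene for 3 libraries, per the file headers. Reads were handled with RSEM and Bowtie2 on mm10 (GRCm38), per the submitters' processing notes, which give no version. Columns were matched to libraries through the labels' descriptions. Of 20677 rows, 17613 have a symbol. Rows at 1 FPKM or more in a library were kept (14412).

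With 1 library per group no test was made. Differences are log2 of FPKM + 1 against FPKM + 1, called at 2-fold. Depth was implied from the spacing of low values in 7697 genes that have 1 transcript, using GENCODE lengths. At the fitted depth 64.9%, 66.9% and 61.1% of the 678, 1197 and 442 low values used came within 0.15 of whole fragments. Chance gives 30% for a fixed step and more for a fitted one. The members and gene lists were chosen with earlier results of these data known. Named genes are the 8 members, from each list the 2 highest genes and up to 4 with the largest differences at 5 FPKM or more, the 5 nearest profiles, sex-linked and driver genes. Lower list genes are named for their role in the pathway, as markers near 0 or where they ran against their list, and neighbours by position. Selenop and C1qtnf12 were matched by gene ID to older symbols. Results were recomputed with a pseudocount of 0.1 or 5 FPKM, without the filter or with it at 5 FPKM, with 3 rescalings, rows with a symbol only, a 4-fold threshold, and Lyz1 with Lyz2. The 2-fold calls were tested on simulated data with planted 4-fold changes in genes at 5 FPKM or more. The nearness measure was tested on a few made-up profiles. The depth fit and the motif search were not tested in this way. Python 3.11.15, numpy 2.4.6, pandas 2.3.3, Biopython 1.88 and matplotlib 3.10.9 were used.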

Additional observations from a re-analysis of the deposited data

How the results depend on the processing

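All 189 member differences recomputed under the alternatives kept the sign reported, and for 16 the difference crossed the 2-fold threshold or the fold between libraries changed by a factor over 1.5, 15 of them with another pseudocount. The exception was Mrc1 in fetal HSC over early EMP, at -1.02 when rescaled without the 50 most abundant genes. The C1q genes were at least 2-fold lower in both comparisons of fetal HSC under every alternative at that threshold. With a pseudocount of 5 FPKM they were at -1.30, -1.50 and -1.35 for C1qa, C1qb and C1qc against early EMP. Against late EMP they were at -1.09, -1.03 and -1.27, close to the threshold. At 4-fold the members lower numbered 0 for late over early EMP, 1 for fetal HSC over early EMP (C1qb) and 0 for fetal HSC over late EMP, and 0 were higher in late over early EMP. In late over early EMP, the members lower numbered 2 with a pseudocount of 0.1 FPKM and 0 with 5 FPKM, and the members higher numbered 0 with 5 FPKM and 0 with the filter at 5 FPKM, which leaves out Adgre1 and Mrc1. The member median for fetal HSC over early EMP was -1.99 with a pseudocount of 0.1 FPKM and -0.68 with 5 FPKM. For fetal HSC over late EMP it was -0.38 with 5 FPKM and -0.98 with median-of-ratios factors. Of 20 other lists, those with a median at least 2-fold from 0 numbered 4, 7 and 4 for late over early EMP and for fetal HSC over early and over late EMP. They numbered 1, 4 and 1 without a filter and 2, 2 and 1 with a pseudocount of 5 FPKM, and 7 for late over early EMP with 0.1 FPKM. The lymphoid median for fetal HSC over early EMP turned from 1.05 to -0.40 with the filter at 5 FPKM, which leaves 2 genes. The share of tested genes lower was 4.23%, 8.59% and 5.35% among rows with a symbol and 0.812%, 1.43% and 0.895% with a pseudocount of 5 FPKM. No paired analysis was possible because each origin has 1 library. Depth limits Adgre1, at about 2 implied fragments in fetal HSC.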

Other observations

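Relatives of the marker genes had their own patterns. Mgl2 and Clec10a, galactose-binding lectins also used as markers of dermal macrophages, were far more abundant than Mrc1. Mgl2 was at 231 FPKM in early EMP, 72.0 in late EMP and 4.38 in fetal HSC, in the order of C1q and with a larger difference (log2 -5.43 for fetal HSC over early EMP). Clec10a was at 440, 285 and 280 FPKM, within 2-fold. Among adhesion receptors related to Adgre1, Adgre5, which encodes CD97, was at 193, 174 and 148 FPKM. Mrc2, the relative of Mrc1, was at 0.02, 0.00 and 0.00 FPKM.

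Receptor tyrosine kinases of the same family as Csf1r did not share its order. Kit, the receptor on which mast cells depend, was at 414, 606 and 405 FPKM. Flt3, a receptor of progenitors and dendritic cells, was at 0.07, 0.59 and 3.16 FPKM, and was at least 2-fold higher in fetal HSC than in early EMP (1.96) and than in late EMP (1.39). C1qtnf12, a secreted protein with a C1q-like domain, was at 16.2, 35.9 and 29.0 FPKM, at least 2-fold higher in late EMP than in early EMP (1.10) and so unlike the C1q chains.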
